A study of Nannochloropsis oceanica with 44 samples.

Results

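In the marine alga Nannochloropsis oceanica, 60 genes had nearly level deposited log2 values through 72 h without nitrogen, stood a median of 10.8-fold lower 6 h after nitrogen came back, and were again near their early deprivation level 72 h after resupply. They were picked out of the 401 genes of the second of the authors' 4 expression clusters, and the 4 cluster tables hold 2489 genes in all. The level course depends on the scale. Each time point was also centred on the median of all 2489 genes. On that scale 37 of the 60 were more than 2-fold higher at 72 h than at 6 h of deprivation. So were 738 of all 2489 genes and 120 of the other 341 genes of the second cluster. Of the 60, 6 still met the selection rule. A gene entered the group if its log2 value was more than 3 lower at 6 h of resupply than at 72 h of deprivation, which is more than 8-fold. Its value after 72 h of resupply also had to lie within 1 of that at 6 h of deprivation. Its 72 h deprivation value could exceed the 6 h one by at most 1, and its 24 h deprivation value could not be more than 1 below the 6 h one.

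The cultures were wild type cells of strain CCMP1779, a single-celled alga of the class Eustigmatophyceae, grown in F/2 seawater medium under continuous light. For deprivation (N-), cells were washed and moved to nitrogen-free medium and sampled at 6 h, 12 h, 24 h, 48 h and finally 72 h. For resupply (NR), cells that had spent 72 h without nitrogen were returned to medium with nitrogen and sampled after the same hours, so every NR group has also been through deprivation. There are 44 RNA-seq libraries by the labels, 4 in each of 11 groups, from 2 biological replicates per time point, and the 0 h group has no column in the tables and was not analysed here.

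The tables hold the genes that passed the authors' test for a difference between deprivation and resupply, with 1 value per gene and time point, read here as a log2 level. No value carries an error, so no difference could be set against the variation among replicate cultures, and no test was possible. Higher and lower are used of genes whose values at 2 time points are over 1 log2 unit apart, a 2-fold limit. The depth of the libraries is unknown here. The median level of all 2489 genes itself moved between columns, by -0.33 from 72 h N- to 6 h NR and by 1.76 from 12 h to 24 h NR. Values after centring each column on that median are given for the main results, but not for every count.

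When nitrogen runs out, Nannochloropsis stops dividing, takes down part of its photosynthetic machinery and stores carbon as triacylglycerol in lipid droplets. When nitrogen returns, the stored oil is broken down, plastid membranes and proteins are rebuilt, and division starts again. The genes described here carry identifiers without names, so none of them can be placed in these processes. An identifier gives the class of gene model and the assembly contig (nanno_ and a number). The prefix maker marks a model that the annotation pipeline kept with supporting evidence, and augustus_masked or snap_masked marks that gene finder's own prediction. How well those predictions are supported was not analysed here.

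During deprivation the 60 genes barely moved. Their median level was 10.09 at 6 h N-, 9.99 at 12 h, 10.11 at 24 h, 10.21 at 48 h and 10.33 at 72 h. No member passed 2-fold in any of the 4 steps between successive N- times, in either direction. Of all 2489 genes, 1.65% were lower in the step to 12 h, 9.12% in that to 24 h, 20.8% in that to 48 h and 9.92% in that to 72 h. The shares that were higher were 1.69%, 1.93%, 0.0804% and 0.201% in the same order. The 5 N- values of a member spanned a median of 0.62 on the log2 scale, and the span was under 1 for 55 of 60 members, against 40.9% of all genes. In the other 341 genes of the second cluster the median span was 0.66, and it was under 1 for 74.8%. A level course was thus common in the whole cluster. The conditions on 24 h and 72 h N- fix part of this flatness. At 24 h N- 0 members were more than 2-fold higher than at 6 h N- and 0 lower, beside 3.17% and 3.94% of all genes. At 72 h N- the numbers were again 0 and 0, beside 4.78% and 43.2% of all genes.

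A few members drifted. At 48 h N-, 1 member was more than 2-fold higher than at 6 h N- (4.10% of all genes were) and 2 were lower (29.6% of all genes were). The gene augustus_masked-nanno_4281-abinit-gene-0.2 had higher values later in deprivation, with 11.57 at 6 h, 12.12 at 12 h, 12.41 at 24 h, 12.61 at 48 h and 12.37 at 72 h. The opposite drift was seen in augustus_masked-nanno_630-abinit-gene-0.1, with 13.09, 13.22, 12.69, 11.97 and 12.13 at the same hours. The other lower member, snap_masked-nanno_985-abinit-gene-0.52, is also the one with the lowest mean level of the group, 5.30 over the 10 time points.

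At 72 h N- the members' median was 0.37 above that of 6 h N- when taken gene by gene, and 40 of 60 members were higher by some amount. Over the 2489 genes the median level at 72 h N- lay 0.84 under that at 6 h N-. Set against that shift, the members' median difference became 1.20, and 37 of them were more than 2-fold higher. So were 738 of all 2489 genes and 120 of the other 341 genes of the second cluster. The flat course therefore holds for the values as deposited, and after centring most of the members were higher late in deprivation.

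At 6 h NR every member was low, which is the value they were chosen by. The median level was 6.66 at 6 h NR against 10.33 at 72 h N-. The drop had a median of -3.44, or 10.8-fold (quartiles over genes -3.92 and -3.20), and ran from -3.003 to -6.25. Of all 2489 genes, 4.18% were lower by more than 3 in this comparison and 22.7% by more than 1. After centring the members' median drop was -3.11 and the smallest was -2.67. The highest member at 6 h NR, at 9.67, still lay above the lowest member at 72 h N-, at 6.54, and 27 of the 60 members at 6 h NR lay below that lowest 72 h N- level.

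**Figure D1:**
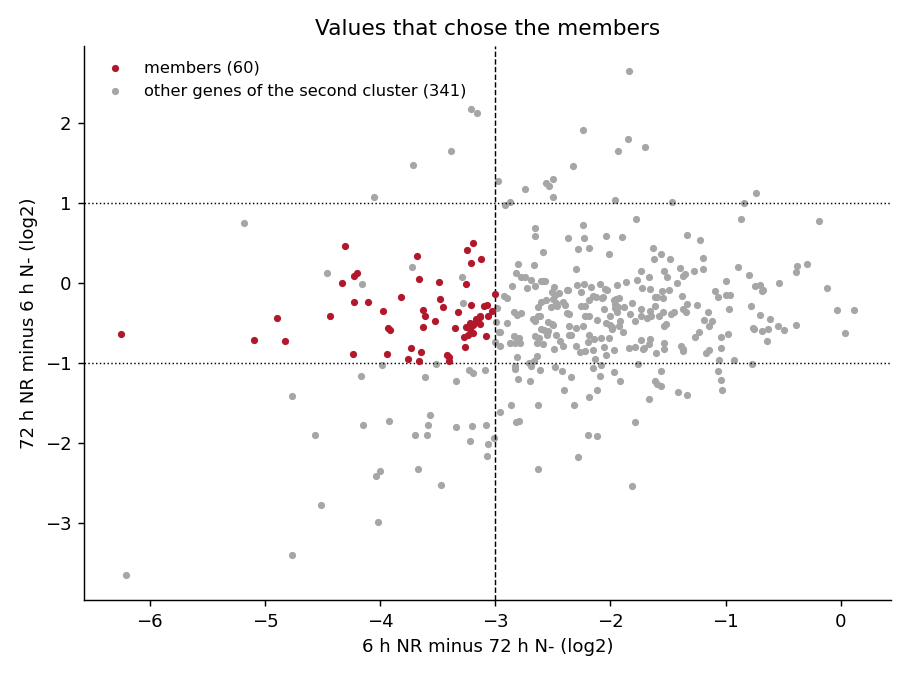
Each point is 1 gene of the second cluster, with the difference of 6 h NR minus 72 h N- on the horizontal axis and of 72 h NR minus 6 h N- on the vertical axis, both in log2 units. The 60 members (red) lie left of the dashed line at -3 and between the dotted lines at -1 and 1, and grey points in the same area failed the condition on 72 h N-.

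The deepest drop belonged to snap_masked-nanno_186-abinit-gene-0.7, at 4.77 at 6 h NR against 11.02 at 72 h N-, a 76.1-fold difference. Its N- values were 10.09, 9.78, 10.38, 10.65 and 11.02 from 6 h to 72 h, and its NR values were 4.77, 5.03, 6.66, 7.00 and 9.45 at the same hours. It stayed the lowest relative to 72 h N- of the 60 members at 12 h, 24 h and 48 h NR, and its largest step up was the last one. Next came maker-nanno_935-augustus-gene-0.36, an evidence-based model, at 7.40 at 6 h NR against 12.49 at 72 h N-. This gene was higher at each later time, with 8.49 at 12 h, 9.23 at 24 h, 10.70 at 48 h and 11.76 at 72 h NR. Its profile was also the most like the members' median profile, with a Pearson correlation of 0.99 over the 10 time points.

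The threshold cuts through a continuous range. Just inside it were augustus_masked-nanno_2882-abinit-gene-0.1 with -3.003 (6.37 at 6 h NR and 9.38 at 72 h N-) and maker-nanno_5541-augustus-gene-0.23 with -3.03. Just outside were augustus_masked-nanno_561-abinit-gene-0.3 with -2.995 (6.51 at 6 h NR and 9.51 at 72 h N-) and augustus_masked-nanno_511-abinit-gene-0.2 with -2.98.

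The conditions of the rule together place every member at 6 h NR more than 2-fold under its 6 h, 24 h and 72 h N- values, so only 12 h and 48 h N- were free to be lower. At 6 h NR all 60 members were more than 2-fold under their own lowest N- value (20.6% of all genes were), and at 12 h NR 59 were (25.4% of all genes). The number was 42 at 24 h NR (7.03% of all genes), 21 at 48 h (4.14%) and 0 at 72 h (2.17%). In the other 341 genes of the second cluster the shares were 80.6%, 80.9%, 38.1%, 24.0% and 15.0% at the same hours, beside 100%, 98.3%, 70.0%, 35.0% and 0% of the members. The 60 at 6 h NR and the 0 at 72 h NR follow in large part from the rule, and nothing is read from them.

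The lowest of the 10 values stood at 6 h NR for 50 of 60 members (20.8% of all genes), at 12 h NR for 8 (36.5%) and at 24 h NR for 2 (2.73%). The members were chosen for a low 6 h NR value, which favours a minimum there, so the 50 are a description only. Both members with their lowest value at 24 h NR are named here after their values were seen. The gene augustus_masked-nanno_4281-abinit-gene-0.2, which had higher values late in deprivation, was at 9.24, 8.78, 8.69, 9.62 and 11.15 from 6 h to 72 h NR. The gene augustus_masked-nanno_5799-abinit-gene-0.0 was at 6.20, 6.59, 5.98, 7.57 and 8.42. After centring the lowest value stood at 6 h NR for 27 members, at 12 h for 4 and at 24 h for 29, so the time of the trough depends on the scaling.

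From 6 h NR on, the members' median deposited level was higher at each later time, with its widest step between 12 h and 24 h. Taken gene by gene, the widest median step was that to 48 h NR, 0.87, beside 0.80 to 24 h. Over the members the median level ran 6.66, 7.22, 8.30, 8.86 and 9.49 from 6 h to 72 h NR. In the step to 12 h NR, 18 members were more than 2-fold higher (10.8% of all genes), in the step to 24 h 26 were (49.8%), in the step to 48 h 24 were (8.04%) and in the step to 72 h 16 were (5.46%). No member was more than 2-fold lower in any of these steps, against 13.8%, 10.2%, 20.0% and 11.4% of all genes. In the other 341 genes of the second cluster the lower shares were also small, at 1.76%, 6.45%, 1.47% and 0.587%. The share of members higher at 24 h than at 12 h NR, 43.3%, was near that of all genes. The shares in the other steps were 30.0% at 12 h, 40.0% at 48 h and 26.7% at 72 h. The step to 12 h starts from the 6 h NR value that the rule keeps low. The step to 72 h ends at the 72 h NR value that the rule keeps near 6 h N-. The choice of members therefore favours rises over falls between these times, and the shares are a description only.

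The step from 12 h to 24 h NR is the one that turned with the scaling. The members' median difference was 0.80 as deposited and -0.96 after centring, when 0 members were higher and 29 lower. On that scale 713 of all 2489 genes were higher and 1166 lower. Of the other 341 genes of the second cluster 8 were higher and 175 lower. The share of members that were lower was thus near that of both sets. The other steps kept their direction. After centring their medians were 0.81 at 12 h, 1.16 at 48 h and 0.72 at 72 h NR, with 20, 37 and 18 members more than 2-fold higher. Of all 2489 genes, 305, 378 and 165 were higher in these centred steps. Of the other 341 genes of the second cluster, 46, 102 and 69 were.

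The share of the log2 drop that a member had regained gives its pace on 1 scale, counted from its 6 h NR value up to its 72 h N- value. The median share was 20.5%, 45.0%, 65.2% and 80.1% in the order 12, 24, 48 and 72 h NR. At 12 h NR 2 members had regained 50% or more, at 24 h 24 had, at 48 h 48 had and at 72 h all 60 had. The condition on the end level favours the 60 at 72 h. The first time at 50% was 12 h NR for 2 members, 24 h for 22, 48 h for 25 and 72 h for 11. In the other 341 genes of the second cluster, whose drops were mostly smaller and in 2 of which 6 h NR was not below 72 h N-, the numbers were 25, 153, 58 and 44 at the same hours, and 61 had not reached 50% by 72 h NR. At 72 h NR the share ran from 53.7% to 145%, and 9 members were at or above 100%. After centring the medians were 24.6%, 1.17%, 28.8% and 52.3% at the same hours, and 32 members had regained 50% at 72 h.

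**Figure D2:**
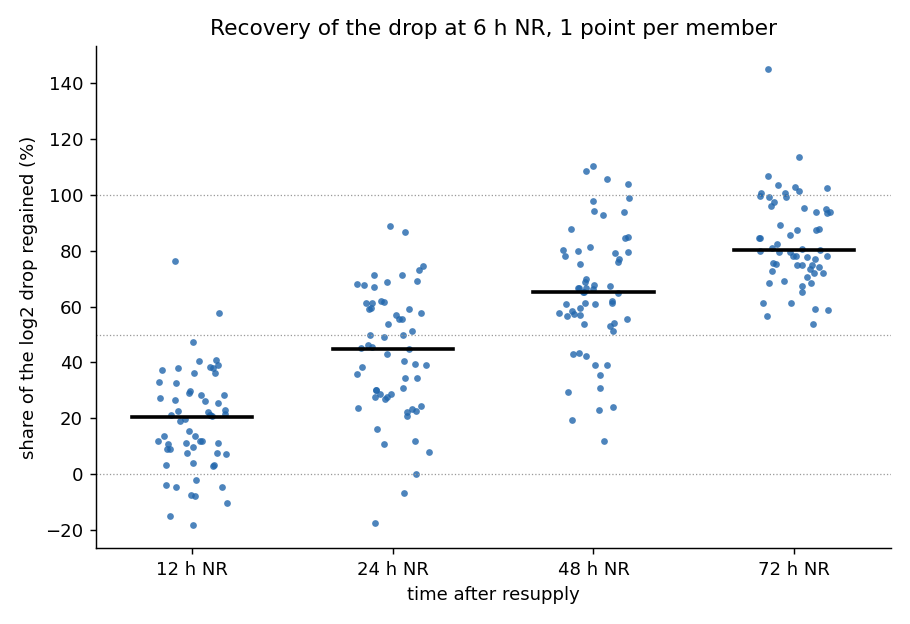
Each point is 1 of the 60 members, with the share of its log2 drop regained (in percent, deposited values) on the vertical axis at 4 times after resupply, and black bars are medians. The median is 20.5% at 12 h and 80.1% at 72 h after resupply, with a wide spread between members at each time.

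Members differed in the interval that carried their largest rise. It was the interval ending at 12 h NR for 12 members, at 24 h for 20, at 48 h for 18 and at 72 h for 10. For the other 341 genes of the second cluster the numbers were 42, 164, 68 and 67. The difference between these splits was not tested. The intervals last 6, 12, 24 and 24 h, so equal steps do not mean equal rates. After centring the numbers were 17, 2, 28 and 13, and of the deposited groups 11, 2, 18 and 9 members kept their interval.

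The 12 members with the earliest rise had a median of 7.07 at 6 h NR, 8.49 at 12 h, 9.08 at 24 h, 9.96 at 48 h and 10.08 at 72 h. The fastest was augustus_masked-nanno_174-abinit-gene-0.12, with 6.19 at 6 h NR, 8.64 at 12 h, 8.48 at 24 h, 9.58 at 48 h and 9.49 at 72 h, after 9.76, 9.51, 9.39, 9.20 and 9.40 in N-. It was the single member back within 2-fold of its 72 h N- value from 12 h NR on. Its profile was the least like the members' median, with a Pearson correlation of 0.82 over the 10 time points. Another early riser was maker-nanno_997-augustus-gene-0.16, at 8.98 at 12 h NR against 7.21 at 6 h NR.

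The 20 members with their largest rise in the interval to 24 h NR had a median of 6.45 at 12 h NR and 8.28 at 24 h, and later medians close to it, with 8.56 at 48 h and 8.80 at 72 h. The widest steps were those of augustus_masked-nanno_594-abinit-gene-0.0, at 9.17 at 24 h NR against 6.56 at 12 h NR, and maker-nanno_6722-snap-gene-0.3, at 8.40 against 5.84. Both were lower at 12 h than at 6 h NR, where they stood at 6.93 and 6.43. Of the 8 members with their lowest value at 12 h NR, 6 were also lower at 48 h than at 24 h NR, against 3 of the other 52, by 0.11 to 0.31 over these 9 genes. Of all 2489 genes, 64.5% had a lower value at 48 h NR than at 24 h NR. After centring 1 member was, and in quantile-normalised columns 8 were.

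The 18 members with their largest rise in the interval to 48 h NR had similar medians at 12 h and 24 h NR, 7.73 and 7.70. Their medians were 9.03 at 48 h NR and 10.04 at 72 h NR. Gene by gene, most of them were higher at 24 h than at 12 h NR, and some were lower. The value went from 9.67 to 10.93 in augustus_masked-nanno_630-abinit-gene-0.1 and from 8.05 to 7.26 in maker-nanno_2359-snap-gene-0.7. The widest steps were those of augustus_masked-nanno_564-abinit-gene-1.1, at 10.55 at 48 h NR against 8.92 at 24 h NR, and augustus_masked-nanno_895-abinit-gene-0.2, at 9.89 against 8.26. The gene with the highest mean level, maker-nanno_727-augustus-gene-0.71 (11.74 over the 10 time points), is also in this group, at 9.67, 10.49, 10.54, 11.59 and 12.21 from 6 h to 72 h NR.

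The 10 late members were still at a median of 8.25 at 48 h NR and reached 9.79 at 72 h. In maker-nanno_5458-augustus-gene-0.3 the N- values were 11.37, 11.11, 10.84, 11.17 and 11.33, and the NR values were 7.23, 6.91, 8.41, 8.17 and 11.13. In snap_masked-nanno_392-abinit-gene-0.2 the NR values were 6.19, 6.05, 7.50, 7.37 and 10.03, beside 10.01 at 72 h N-. These genes had regained 23.0% and 30.8% of the drop at 48 h NR, and 95.3% and 101% of it at 72 h. The weakly expressed snap_masked-nanno_985-abinit-gene-0.52 had the same shape, at 3.37, 3.66, 3.63, 4.00 and 6.56 from 6 h to 72 h NR.

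**Figure D3:**
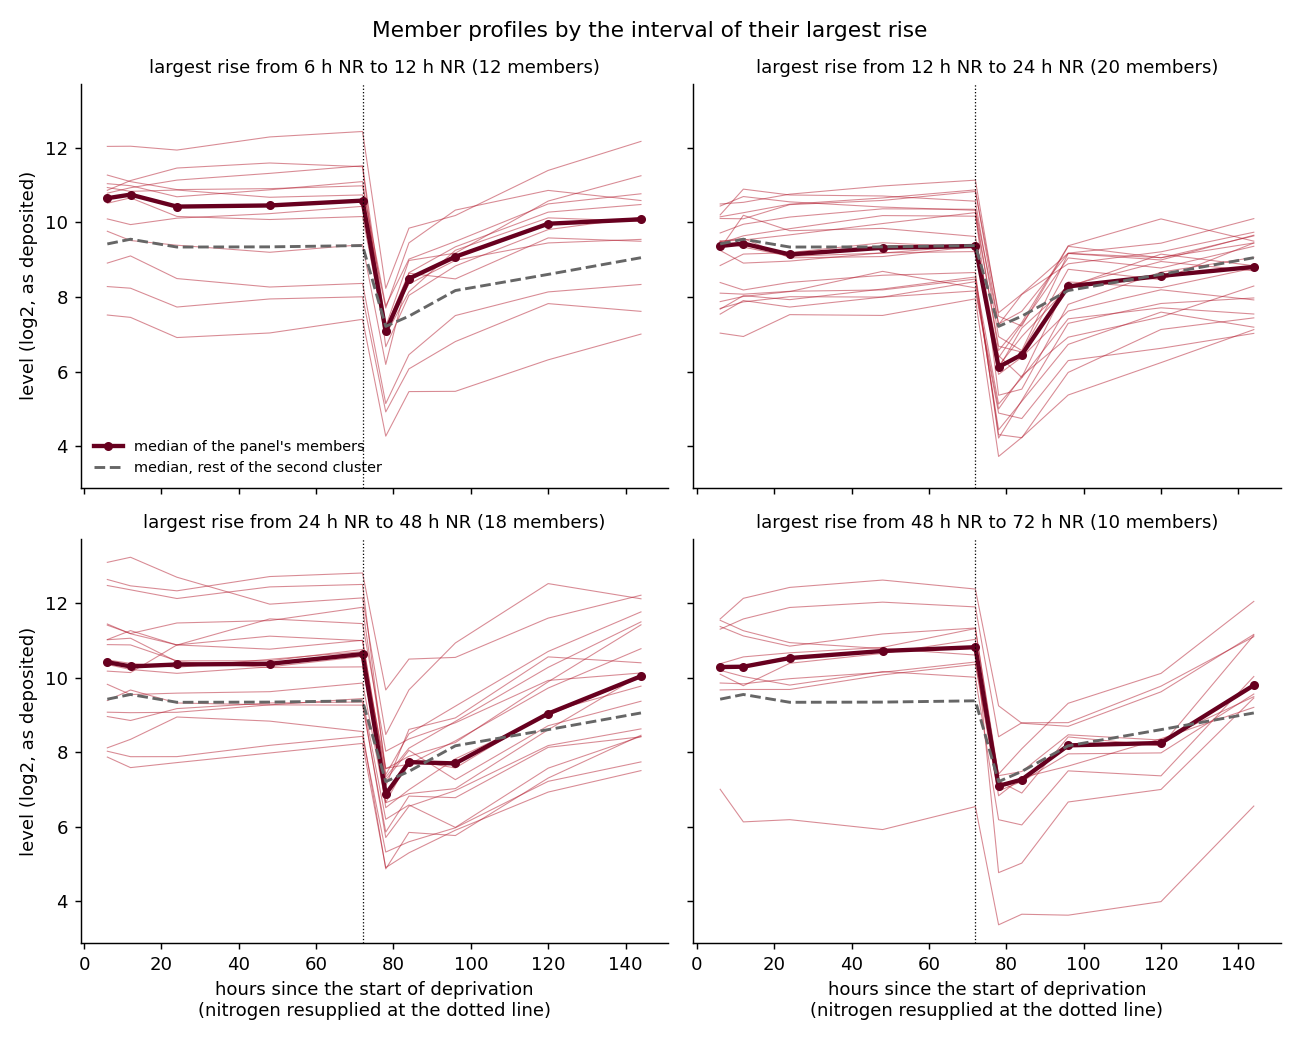
Thin red lines are the members' levels (log2, as deposited) over hours since the start of deprivation, with resupply at the dotted line, split by the interval of the largest rise. The thick line is the median of the panel's members and the dashed line the median of the other 341 genes of the second cluster, which was 7.21 at 6 h NR and 9.38 at 72 h N-.

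At 12 h NR 59 members were still more than 2-fold below 72 h N- (27.2% of all genes), at 24 h 53 were (11.1%) and at 48 h 38 were (9.04%). At these hours 0 members were more than 2-fold above it, beside 29.2%, 61.3% and 54.6% of all genes. Of the other 341 genes of the second cluster, 0, 1 and 1 were above it by that much, and 89.1%, 54.5% and 38.1% were below. A return was counted from the first NR time after which a member stayed within 2-fold of its 72 h N- value. It came at 12 h NR for 1 member, at 24 h for 6, at 48 h for 13 and at 72 h for 24, and 16 members had not returned by 72 h NR. Of these 16, 15 were still below and 1 was above. Among the other 341 genes of the second cluster 6 were within 2-fold from 6 h NR on, 4 from 12 h, 111 from 24 h, 62 from 48 h and 44 from 72 h, and 114 had not returned. The largest drop among those back at 24 h NR was that of maker-nanno_1014-augustus-gene-0.56, at 6.57 at 6 h NR and 9.37 at 24 h NR, beside 10.32 at 72 h N-. Among those back at 48 h NR it was that of augustus_masked-nanno_1026-abinit-gene-0.5, at 4.22 at 6 h NR and 7.82 at 48 h NR, beside 8.65 at 72 h N-. After centring 48 members had not returned by 72 h NR.

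At 72 h NR the median member was 0.72 below 72 h N-, with 15 members more than 2-fold lower (7.87% of all genes) and 1 higher (47.2% of all genes). In the rest of the second cluster 91 of 341 genes were more than 2-fold lower (26.7%) and 23 higher (6.74%). A lower level at 72 h NR was thus about as common there as in the members. Against 6 h N-, the rule leaves 0 members more than 2-fold lower at 72 h NR and 0 higher (3.74% and 9.20% of all genes). The widest gaps were in maker-nanno_985-augustus-gene-1.67, at 9.49 at 72 h NR against 11.31 at 72 h N-, and in maker-nanno_2359-snap-gene-0.7, at 9.36 against 10.99. Their 6 h N- values were lower than those at 72 h N-, at 10.37 and 10.17. After centring 48 members were more than 2-fold lower at 72 h NR than at 72 h N- and 0 were higher. Of all 2489 genes 738 were lower and 680 higher on that scale. Of the other 341 genes of the second cluster 224 were lower and 4 higher.

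Set side by side at matched hours, the median member was lower in NR than in N- at all 5 hours. At 6 h all 60 members were more than 2-fold lower in NR (59.0% of all genes), which the rule fixes. At 12 h 59 were lower (62.8% of all genes), at 24 h 50 (10.5%) and at 48 h 36 (8.40%), and 0 were higher at these hours (30.0%, 31.3%, 44.0% and 47.9% of all genes from 6 h to 48 h). Of the other 341 genes of the second cluster, 89.7%, 56.0% and 38.4% were lower at 12 h, 24 h and 48 h. Few of these 341 genes were higher, with 1.17% at 6 h, 2.05% at 12 h, 0% at 24 h and 0% at 48 h. The members' median difference was -3.24 at 6 h, -2.63 at 12 h, -1.77 at 24 h, -1.14 at 48 h and -0.72 at 72 h. After centring it was -2.08, -1.18, -2.33, -1.87 and -1.64, with 35 members lower at 12 h, 59 at 24 h and 51 at 48 h. Of all 2489 genes, 808, 452 and 456 were lower at these 3 hours after centring. Of the other 341 genes of the second cluster, 99, 283 and 231 were. The members' median was thus below 0 on both scales at each hour, while the steady approach to N- was seen in the deposited values only.

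**Figure D4:**
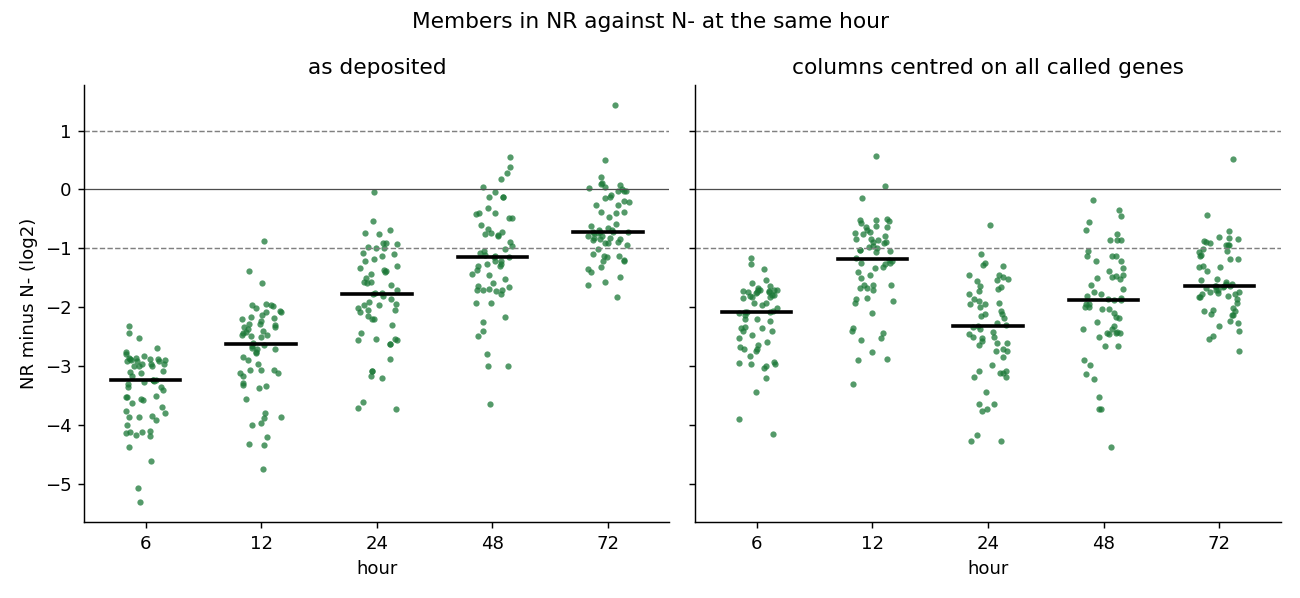
Each point is 1 of the 60 members, with NR minus N- at the same hour (log2) on the vertical axis, as deposited on the left and after centring each column on the median of all called genes on the right. Black bars are medians, and the dashed lines mark 2-fold. The left medians run from -3.24 at 6 h to -0.72 at 72 h, while the right ones stay between -1.18 and -2.33.

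At 24 h the lowest in NR relative to N- was augustus_masked-nanno_4281-abinit-gene-0.2, at 8.69 at 24 h NR against 12.41 at 24 h N-. At 12 h it was snap_masked-nanno_186-abinit-gene-0.7, at 5.03 against 9.78, followed by maker-nanno_6722-snap-gene-0.3, at 5.84 against 10.19. At 48 h snap_masked-nanno_186-abinit-gene-0.7 again stood lowest, at 7.00 against 10.65, followed by maker-nanno_5458-augustus-gene-0.3, at 8.17 against 11.17.

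The rest of the second cluster had a similar but shallower course, as the choice of members requires. Its median difference at 6 h NR was -2.15 against 72 h N-, beside -3.44 in the members. In the interval to 12 h NR, which starts from the 6 h NR value that the rule uses, the median difference was 0.73 in members and 0.09 in the other 341 genes, and in the interval to 48 h NR it was 0.87 and 0.40. In the interval to 24 h NR it was 0.80 and 0.75, and after centring -0.96 and -1.02. All values of both sets went into the authors' clustering, so these differences describe the sets and were not tested.

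The identifiers give properties that the rule did not use. Of the 60 members, 21 were evidence-based maker models (35.0%), 26 were masked augustus predictions (43.3%) and 13 were masked snap predictions (21.7%). Over all 2489 genes the shares were 34.8%, 35.7% and 29.5%. The members lay on 57 contigs, no contig held more than 2 of them, and 16 were the only called gene on their contig. The same contigs held 26 further genes of the second cluster and 182 of the other clusters.

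Each of 3 contigs carried a pair of members. On contig 397, augustus_masked-nanno_397-abinit-gene-0.9 and maker-nanno_397-snap-gene-0.46 ran close together, with a Pearson correlation of 0.97 over the 10 time points and levels that never differed by more than 0.91. At 6 h NR they stood at 7.76 and 7.33, and at 72 h NR at 10.76 and 11.49. On contig 1026 the correlation was 0.91, between augustus_masked-nanno_1026-abinit-gene-0.5 and maker-nanno_1026-augustus-gene-0.26, which stood close together at 24 h NR (7.29 and 7.58) and far apart at 72 h N- (8.65 and 10.56). On contig 985 it was 0.90, between maker-nanno_985-augustus-gene-1.67 and snap_masked-nanno_985-abinit-gene-0.52, whose levels differed by 2.93 to 4.88. How far apart the models of a pair lie was not analysed here. Correlations between other pairs of members were not computed, so whether these pairs are more alike than others is unknown. With the members' median profile, the median member had a correlation of 0.96.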

How the data were processed

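Each value is an RNA-seq level on a log2 scale that the authors deposited, 1 per gene and time point. The scale was inferred from the values (1.46 to 19.46), and how libraries were scaled, transformed and joined is not given in the sources used here. Reads were single-end (50 bases); per the labels' protocols Trimmomatic 0.32 trimmed them, STAR 2.3.0e placed uniquely mapping reads on the strain's own assembly, and HTSeq 0.6.1 counted them on exons. Unique mapping undercounts near-identical paralogs. Genes passing the authors' DESeq2 test (log2 fold change over 1, adjusted p under 0.01) were split by k-means into 4 clusters, per the labels' protocols. The other deposited column is the authors' row number, a running number that was not used here.

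Differences, counts, quartiles and correlations were computed with Python 3.11.15, numpy 2.4.6 and pandas 2.3.3. The code for the rule and counts was checked on simulated data with planted drops, none near the threshold and with no shift between columns. That check does not cover how the results depend on the scaling. All counts are over the 2489 genes called by the authors. Named members are those with the largest differences in each comparison (up to 2 in each direction), mean levels, likeness to the median profile, drops per return time and shared contigs. The members, lists and rules were chosen with earlier results of these data known. Alternatives were 2 other scalings, other thresholds, a low-value filter and another definition of return. None of the 2489 identifiers matched the 160 organelle genes of the reference table (strain IMET1), so functions, coordinates and sequences were not used here and no functional gene list was applied.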

Additional observations from a re-analysis of the deposited data

Results flagged for a closer look

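The contrast of NR with N- turned between hours in 1 member, snap_masked-nanno_497-abinit-gene-0.33, which stood under N- at 6 h and over it at 72 h, both past the 2-fold limit. The difference between these hours was not tested. The gene was at 7.41, 8.09, 9.31, 10.11 and 12.04 from 6 h to 72 h NR, and at 11.53, 11.25, 10.94, 10.78 and 10.60 at the same hours of N-. NR minus N- was therefore -4.12, -3.16, -1.62, -0.66 and 1.44. After centring the 72 h difference was 0.52, short of 2-fold. Such a turn occurred in 33 of the other 341 genes of the second cluster (9.68%) and in 1277 of all 2489 genes (51.3%), beside 1.67% of the members. The rule places each member over 2-fold under N- at 6 h and keeps its 72 h NR value within 1 of 6 h N-. It thus limits upward turns at 72 h, and nothing is read from the members' lower share.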

How the results depend on the processing

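No result has an error, and depth limits could not be assessed. No paired analysis was possible because the tables hold 1 value per time point, and leaving out libraries was not run for the same reason. The 60 members became 115 with a drop threshold of -2.5 and 27 with -3.5. The rule found 7 genes in centred columns (6 of them members) and 11 in quantile-normalised columns (8 of them members). In centred columns 37 members failed the condition on 72 h N- and 26 that on the drop. Over all 4 tables the rule found 61 genes.

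Members higher in the NR steps to 12, 24, 48 and 72 h numbered 18, 26, 24 and 16. They were 34, 39, 43 and 35 with a difference of 0.5 and 5, 15, 6 and 8 with 1.5. In centred columns the step to 24 h had 0 and that to 48 h 37, and in quantile-normalised columns the step to 24 h had 0. Lower NR steps numbered 0 as deposited, 29 centred, 27 quantile-normalised and 4 at 0.5. N- steps past the limit numbered 0 as deposited, 3 centred, 5 quantile-normalised and 19 at 0.5. Leaving out the 12 members with a value under 5 kept each of these counts within 1.5 times.

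The lowest value stood at 6, 12 and 24 h NR for 27, 4 and 29 members centred and for 26, 4 and 27 quantile-normalised. Returns at 24, 48 and 72 h NR and no return numbered 0, 3, 9 and 48 centred and 0, 4, 11 and 45 quantile-normalised. Counted against the lowest N- value they were 16, 21, 21 and 1. At matched hours NR was lower at 12 h in 35 members centred and 32 quantile-normalised, and at 72 h in 48 and 45, with 0 higher at 72 h on both scales. Counts at 6, 24 and 48 h stayed within 1.5 times. The cause of these shifts was not tested. Which scale is closest to the RNA content of the cells cannot be told from these tables.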

Other observations

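In the second cluster 103 genes were lower by more than 3 at 6 h NR than at 72 h N-, and 43 of them did not meet the other conditions. Of these, 31 ended more than 2-fold below their 6 h N- level at 72 h NR, 5 ended more than 2-fold above it and 12 were more than 2-fold higher at 72 h than at 6 h N-, with 5 genes failing more than 1 condition. Their median level was 6.42 at 6 h NR and 8.64 at 72 h NR, beside 10.56 at 72 h N-. By 72 h NR 15 of the 43 had not regained 50% of the drop, against 0 of the 60 members, a difference that the condition on the end level favours. Among the other clusters a single gene met the rule, maker-nanno_831-augustus-gene-0.24 of the fourth cluster. It stood at 5.55, 6.98, 9.34, 9.52 and 9.31 from 6 h to 72 h NR, beside 8.59 at 72 h N-.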
